A study of Mus musculus with 6 samples.

Results

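The oxidative phosphorylation subunits are the nuclear-encoded proteins of the 4 respiratory chain complexes and of ATP synthase, which is counted as complex V. They were chosen by name: every row of the deposited gene table whose symbol begins with Nduf followed by a, b, c, s or v and a digit, with Uqcr, with Cox4 to Cox8 or with Atp5, together with Sdha, Sdhb, Sdhc, Sdhd and Cyc1. Pseudogenes and Ndufa4l2 were left out, and Ndufa4 was counted with complex IV, of which its product is a subunit. This gave 84 of the 18476 genes in the table, with 37 in complex I, 4 in complex II, 9 in complex III, 17 in complex IV and 17 in complex V. Subunits encoded by mitochondrial DNA were not analysed here, as 0 genes of that chromosome are in the table.

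Complexes I and II pass electrons from NADH and succinate to ubiquinone, complex III passes them on to cytochrome c, and complex IV passes them from cytochrome c to oxygen. Complexes I, III and IV pump protons across the inner mitochondrial membrane, and ATP synthase lets the protons flow back to make ATP. In the artery wall, contractile smooth muscle, endothelium, macrophages and the surrounding fat differ in how much they rely on this route, and several complex IV subunits exist as paralogous pairs, with 1 form made in most tissues and another mainly in heart and skeletal muscle, lung or testis.

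Femoral arteries of wild-type C57BL/6 mice were collected 3 days after wire injury, an injury in which a wire passed through the vessel strips its endothelium. The arteries of 3 libraries had been treated from outside the vessel with saline and those of 3 with vasostatin-2, a fragment of chromogranin A. All 6 libraries carry the same batch label, and the labels give no age, sex or number of animals per library. The series text calls the 3 libraries of a group biological replicates. Smooth muscle is the labelled cell type, but RNA came from the whole injured vessel, and summed TPM (a transcript level corrected for length and scaled to a fixed total) was 11113 to 15783 for 7 macrophage markers and 4426 to 10267 for 6 white adipocyte markers, against 780 to 2096 for 8 smooth muscle markers. Lyz2 alone gave 5809 to 9657.5 TPM of the first sum and Fabp4 3368 to 7943 of the second. The sums thus do not rank cell types by their content.

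The deposited estimated counts summed to between 19333730 and 20105995 per library, so 3 counts were worth 0.149 to 0.155 CPM (counts scaled to a fixed library total). Libraries differed in the tissue they held. Vasostatin-2 replicate 3 had 1660 summed TPM of 14 skeletal muscle markers against 126 to 208 in the other 5 libraries. Saline replicate 2 had 43391 summed TPM of 7 red cell markers against 1149 to 9494 elsewhere, saline replicate 3 had 918 of 6 Schwann cell markers against 167 to 265, and saline replicate 1 had the least white adipocyte signal, 4426 against 7247 to 10267. In bulk RNA, fewer cells of a type and less RNA per cell cannot be told apart.

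Promoters of respiratory chain genes are known for binding sites of NRF1, of the ETS factor GABP and of YY1, which is why promoter sequences are shown first. RefSeq windows of 300 bases on GRCm38.p6, reaching from 250 bases before to 50 after a start site, matched 68 of the 84 members with 73 windows, because some genes have more than 1 start site. On either strand, the NRF1 core GCGCANGCG was found in 21 of the 73 windows (28.8%), against 6.25% of all 32851 windows and 11.7% of the 14694 windows of genes tested here. The YY1 core GCCATNTT was in 17 windows (23.3%), against 6.05% of all windows and 7.51% of those of genes tested. The ETS core CCGGAAG was also in 17 (23.3%), against 8.86% and 15.5%. At least 1 of these was in 45 windows (61.6%), against 18.6% and 29.7%. The GC box GGGCGGGG was in 12 windows (16.4%), below the 17.6% of all windows and the 30.5% of those of genes tested. Matches to the ERR site TCAAGGTCA were in 2 of the 73 (2.74%), against 0.423% of all windows and 0.259% of those of genes tested. Those to the CRE TGACGTCA were in 4 (5.48%), against 1.79% and 2.75%. By complex, the NRF1 core was in 9 of 34 windows of complex I, 2 of 3 of complex II, 2 of 5 of complex III, 1 of 13 of complex IV and 7 of 18 of complex V, and the YY1 core was in 12 of the 34 windows of complex I. These matches are letters in a window, not measured binding.

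The 200 bases before the start site are printed 5′ to 3′ along the gene's strand for 1 member of each complex that held the NRF1 core and for a pair of muscle isoforms of complex IV that held none of the 6 motifs, chosen after the matches had been seen. Capitals mark matches to the NRF1 core or to the ETS core on either strand. The palindromic part of the NRF1 core lets matches on opposite strands overlap, and the capitals at the end of Uqcr11 are the first bases of a match that runs past the start site. Ndufb4 (chr16:37654369-37654568, minus strand) is an accessory subunit of complex I, Sdha (chr13:74350241-74350440, minus strand) the flavoprotein of complex II, Uqcr11 (chr10:80406822-80407021, minus strand) a small subunit of complex III, Cox6a1 (chr5:115348959-115349158, minus strand) the widely expressed form of subunit 6a of complex IV, and Atp5h (chr11:115419920-115420119, minus strand) a peripheral stalk subunit of ATP synthase. Cox7a1 (chr7:30183971-30184170, plus strand) and Cox8b (chr7:140900447-140900646, minus strand) are the heart and skeletal muscle forms of subunits 7a and 8. Widely expressed complex IV genes also held none of the 6 motifs, among them Cox5a, Cox7a2, Cox7a2l, Cox7c and Ndufa4. A lack of motifs thus does not set the muscle forms apart.
Ndufb4: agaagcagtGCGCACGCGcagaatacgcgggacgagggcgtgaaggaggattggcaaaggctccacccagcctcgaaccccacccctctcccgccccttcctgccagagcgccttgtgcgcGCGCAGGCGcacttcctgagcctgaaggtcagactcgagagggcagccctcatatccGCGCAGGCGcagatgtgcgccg
Sdha: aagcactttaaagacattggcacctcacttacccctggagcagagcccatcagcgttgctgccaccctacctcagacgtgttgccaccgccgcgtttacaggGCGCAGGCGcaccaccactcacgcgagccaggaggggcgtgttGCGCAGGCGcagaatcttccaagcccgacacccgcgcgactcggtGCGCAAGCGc
Uqcr11: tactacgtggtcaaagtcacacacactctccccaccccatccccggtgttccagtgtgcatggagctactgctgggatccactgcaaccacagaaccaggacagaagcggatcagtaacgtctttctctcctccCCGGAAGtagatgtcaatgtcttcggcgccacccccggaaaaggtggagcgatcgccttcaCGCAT
Cox6a1: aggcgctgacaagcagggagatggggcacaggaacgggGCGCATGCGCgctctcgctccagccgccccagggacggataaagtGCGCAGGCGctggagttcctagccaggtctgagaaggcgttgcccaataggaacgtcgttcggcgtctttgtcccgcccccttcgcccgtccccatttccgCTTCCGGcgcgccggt
Atp5h: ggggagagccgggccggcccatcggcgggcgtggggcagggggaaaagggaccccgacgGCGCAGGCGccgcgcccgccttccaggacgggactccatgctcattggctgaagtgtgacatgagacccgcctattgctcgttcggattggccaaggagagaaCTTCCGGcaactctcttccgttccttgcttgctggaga
Cox7a1: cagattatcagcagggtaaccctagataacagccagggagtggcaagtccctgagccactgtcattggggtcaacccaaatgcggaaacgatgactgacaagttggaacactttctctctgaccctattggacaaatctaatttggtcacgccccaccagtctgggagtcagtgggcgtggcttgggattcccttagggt
Cox8b: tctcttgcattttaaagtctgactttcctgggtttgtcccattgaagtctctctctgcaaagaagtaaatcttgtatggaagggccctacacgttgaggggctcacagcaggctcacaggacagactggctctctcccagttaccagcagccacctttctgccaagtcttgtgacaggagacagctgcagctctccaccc

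Most subunit genes were among the abundant transcripts of the injured artery. Together the 84 genes made up 1.77%, 1.91% and 1.90% of all TPM in saline replicates 1 to 3 and 1.94%, 1.94% and 1.85% in vasostatin-2 replicates 1 to 3. The saline mean was 1.86% ± 0.0781 and the vasostatin-2 mean 1.91% ± 0.0530 (SD, n = 3 each), and the groups overlapped. The median member had a mean level of 177 TPM, against 18.1 TPM over the genes tested. Means above 100 TPM were found for 65 members, and 45 members were among the 1000 genes of highest mean TPM.

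Levels differed more between complexes than between treatments. The median of the members' mean TPM was highest for ATP synthase, at 343, where all 17 genes lay above 100 TPM, from Atp5k at 193 to Atp5b at 755. Complex IV had a median of 277 TPM and the widest span as a difference in TPM, from Cox4i2 at 5.14 to Cox6b1 at 724. The medians of complex II, at 159 TPM (Sdhd 103 to Sdhc 185), of complex III, at 143 TPM (Uqcrq 75.8 to Uqcrb 359), and of complex I, at 122 TPM (Ndufb4b 0.29 to Ndufa3 369), were lower. These levels were those of messenger RNA. A length implied by the deposited counts and FPKM (counts corrected for length and library total) was under 1000 bases for 61 of the 84 members.

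**Figure D1:**
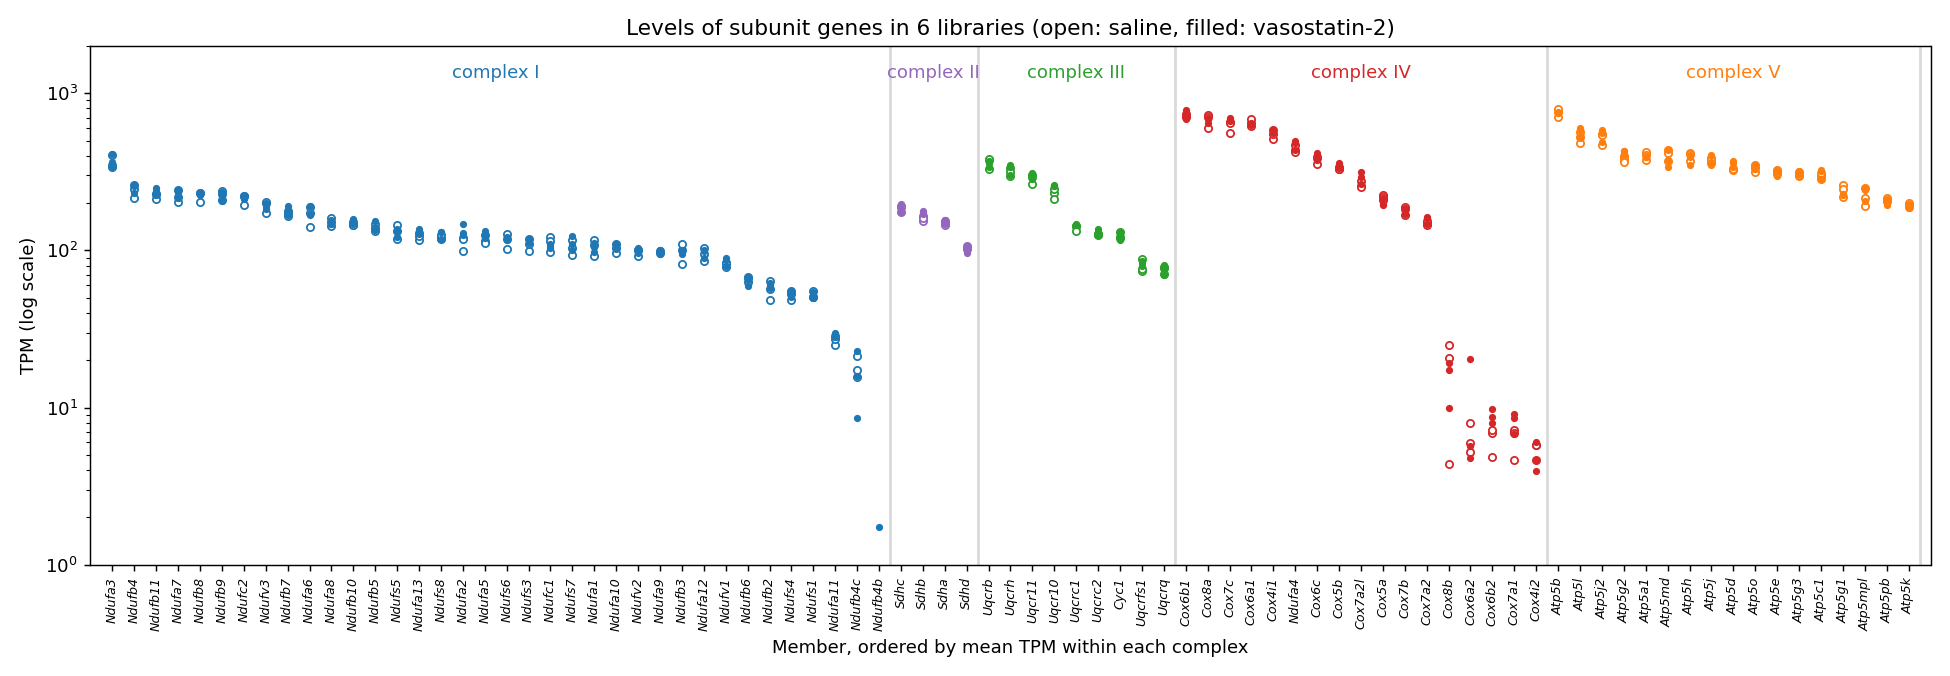
Level of members in TPM (log scale) in the 6 libraries, ordered by mean level within each complex, with open circles for saline and filled circles for vasostatin-2. Symbols of both groups lie over each other for nearly every gene, 5 complex IV genes and Ndufb4c sit far below the rest, and the 5 libraries with 0 TPM of Ndufb4b cannot be drawn on a log axis, and 1 member is not shown.

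Summed over its genes, complex I had 4533, 5042 and 5009 TPM with saline and 5114, 5005 and 4889 TPM with vasostatin-2, a mean of 4861 ± 285 against 5003 ± 113 (SD, n = 3). Complex II had 598 ± 20.4 against 616.5 ± 12.0 TPM, complex III 1741 ± 80.3 against 1803 ± 68.6, complex IV 5224 ± 235 against 5386 ± 149, and complex V 6214 ± 170 against 6309 ± 226. In each complex the vasostatin-2 mean was the higher of the pair by less than the larger SD, and the groups overlapped. Saline replicate 1 was the lowest library in each of the 5 sums.

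Gene by gene, no subunit passed the test of a difference between vasostatin-2 and saline. In the quasi-likelihood test of edgeR, 0 of 83 members passed an adjusted p of 0.05 (0.0% of the 14557 genes tested did), where p-values were adjusted by the Benjamini-Hochberg method over all 14557. The genes tested were those that passed a filter on low counts, which left out Ndufb4b alone among the members. At an unadjusted p under 0.05, 0 of 83 members passed against 7.14% of all genes, with 0 members higher against 3.29% and 0 lower against 3.85%. DESeq2 on the same counts also gave 0 members, against 6.64% of all genes unadjusted and 0.809% adjusted. At an unadjusted p under 0.05, limma-voom with quality weights gave 5 members (10.8% of all genes) and limma-trend on the log2 of TPM plus 1 gave 2 (6.57%), with 0 members past the adjusted threshold by any of the 4 tools. The smallest member p in edgeR was 0.063, for Ndufa2, with an adjusted p of 0.710. In the authors' deposited table, 0 of the 84 members had a q under 0.05 (0.533% of all genes with a q did) and 0 a p under 0.05 (5.68%), the smallest p being 0.0758.

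The fitted differences were small. The log2 fold changes of vasostatin-2 over saline ran from -0.19 (Ndufb4c) to 0.68 (Cox6a2), with a median of 0.05 against -0.001 for all genes tested. Both ends rested on 1 library: Ndufb4c was at 0.11 when vasostatin-2 replicate 2 was left out and at -0.55 when replicate 1 of that group was, and Cox6a2 was at -0.28 without vasostatin-2 replicate 3. They were above 0 for 61 members and below 0 for 22, against 49.8% above 0 among all genes. Only Cox6a2, Cox6b2, Cox7a1 and Ndufa2 differed by more than 0.25 on the log2 scale in either direction, 4 of 83 against 20.6% of all genes. For 76 of 83 members the 95% interval of the log2 fold change lay within 0.5 of 0 on both sides, which held for 61.0% of all genes. The exceptions were Ndufa2, Ndufb4c, Cox4i2, Cox6a2, Cox6b2, Cox7a1 and Cox8b. It lay within 1 of 0 for 78 members, against 85.1% of all genes. Members were measured more tightly than most genes, with a median standard error (SE) of 0.087 against 0.122 and a median biological coefficient of variation of 9.78% against 12.3%. The groups did not overlap on the CPM scale for 3 members, against 12.8% of all genes tested. Ndufa2 and Cox6b2 were the 2 that lay higher with vasostatin-2 (6.07% of all genes) and Atp5g1 the 1 that lay lower (6.72%). Some members lay apart by TPM but not by CPM, among them Sdhb, Uqcr10, Atp5d, Atp5g2, Ndufa13, Cox7c and Uqcrc1. The share of all genes apart by TPM was not counted, so separations by TPM have no background here.

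**Figure D2:**
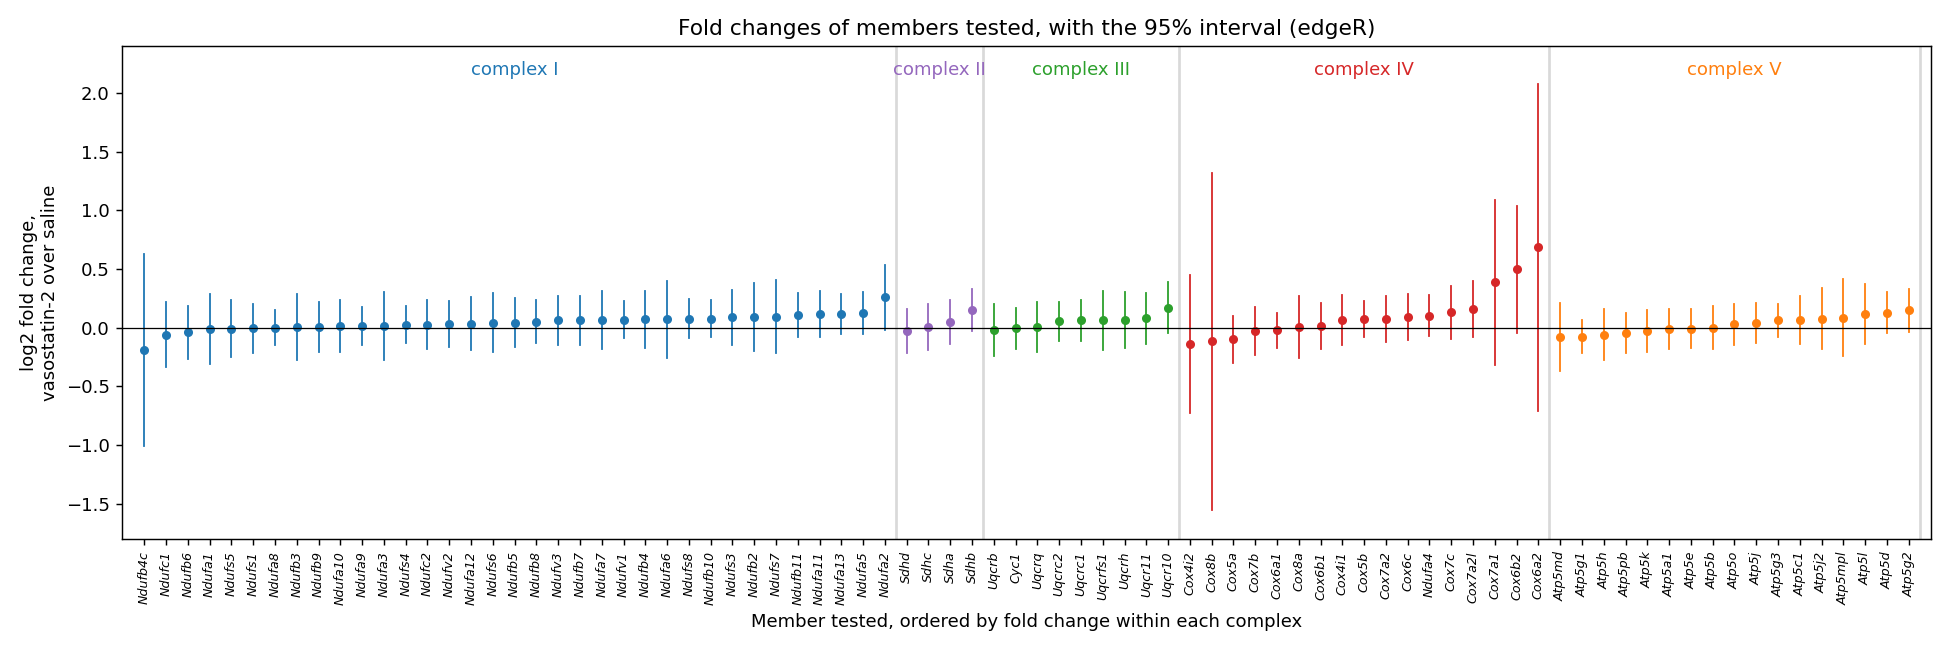
Log2 fold change of vasostatin-2 over saline (points) with its 95% interval from edgeR (bars) for members tested, ordered within each complex. Every interval drawn includes 0, and the wide ones belong to Ndufb4c and to the tissue isoforms of complex IV, and 1 member is not shown.

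In complex I, the subunits tested differed little between the groups. Of 36 genes tested, 29 had a log2 fold change above 0, with a median of 0.04. Of the core subunits on the electron path, Ndufv1, which binds NADH, had 83.7, 78.9 and 83.3 TPM with saline and 89.1, 86.8 and 80.0 TPM with vasostatin-2 (log2 fold change 0.07, SE 0.07). Ndufs1, the largest iron-sulfur subunit, had 50.3, 55.5 and 50.55 against 54.8, 51.3 and 49.5 TPM (-0.01, SE 0.09). For both the groups overlapped.

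Ndufa2, an accessory subunit with a thioredoxin-like fold (gene ID 17991, chr18:36742332-36744587), had the smallest p of the set. It had 99.0, 119 and 119 TPM with saline and 147, 129.8 and 126 TPM with vasostatin-2. The groups did not overlap, saline replicate 1 was the lowest library, and the log2 fold change was 0.26 (SE 0.12, 95% interval -0.02 to 0.53). Without saline replicate 1 it was 0.16. Ndufa13, an accessory subunit also known as GRIM-19, followed with 117, 124 and 129 against 136.5, 133 and 129 TPM and a log2 fold change of 0.12 (SE 0.07, adjusted p = 0.775 in edgeR), with the groups apart by TPM and overlapping by CPM.

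The most abundant complex I genes were accessory subunits. Ndufa3 had 340.4, 406 and 352 TPM with saline and 411, 366 and 340.0 TPM with vasostatin-2, each group holding 1 high library (log2 fold change 0.02, SE 0.12). Ndufb4 had 214, 245 and 260.2 against 261, 259 and 232 TPM (0.07, SE 0.10), and Ndufb11 had 213, 229 and 228 against 238, 249.6 and 227.5 TPM (0.11, SE 0.08). For both the groups overlapped.

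The counts of the Ndufb4 copies are uncertain. The transcript of Ndufb4 shares 40.2% of its length at 100% identity with Ndufb4c. In saline replicate 1 their deposited counts were 823.53 and 87.47, fractions that complete each other, so reads were split between the copies. The levels and fold changes of Ndufb4 and Ndufb4c depend on that split. Ndufb4c, on another chromosome (chr15:73809449-73809933), had 21.1, 17.2 and 15.6 against 22.8, 8.54 and 15.8 TPM, or 3.19% to 8.98% of the pair's TPM in the 6 libraries. Ndufb4b was listed at 0 TPM in 5 libraries and at 1.74 TPM in vasostatin-2 replicate 2, where its count of 7.25 was also fractional.

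Complex II, succinate dehydrogenase, is also an enzyme of the citric acid cycle and has 4 genes, all with overlapping groups by CPM. Sdhb, the iron-sulfur subunit (chr4:140961271-140979198), had 153, 165 and 159.8 TPM with saline and 177, 171 and 179 TPM with vasostatin-2, so that by TPM every vasostatin-2 library was above every saline library. Its log2 fold change was 0.15 (SE 0.08, adjusted p = 0.728 in edgeR). Sdha, the flavoprotein whose promoter is printed above, had 146, 154 and 149 against 157, 156 and 149 TPM (0.05, SE 0.08). Of the membrane anchors, Sdhc had 175, 191 and 189.8 against 176, 197 and 184 TPM (0.01, SE 0.08), and Sdhd had a log2 fold change of -0.03 (SE 0.08). The median over the 4 genes was 0.03.

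In complex III, 7 of 9 genes had a log2 fold change above 0, with a median of 0.06. The catalytic subunits, cytochrome c1 (Cyc1) and the Rieske iron-sulfur protein (Uqcrfs1), had mean levels of 123 and 81.3 TPM and log2 fold changes of -0.01 and 0.06. The large core proteins Uqcrc1 and Uqcrc2 had means of 143 and 129 TPM and log2 fold changes of 0.06 and 0.05. The small subunits held the ends of the range, from -0.02 for Uqcrb to 0.17 for Uqcr10.

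Uqcr10 (chr11:4701968-4704344) had 233, 247 and 214 TPM with saline and 259, 262 and 258 TPM with vasostatin-2. By TPM the groups did not overlap, by CPM they did, and the log2 fold change was 0.17 (SE 0.09, adjusted p = 0.737 in edgeR). Uqcr11 had 264, 300.3 and 293 against 311, 306 and 286 TPM (0.08, SE 0.09). The most abundant genes were Uqcrb, with 328, 377 and 379.9 against 368, 360.1 and 337 TPM (-0.02, SE 0.09), and Uqcrh, the hinge protein, with 296, 335 and 316 against 349, 339 and 300.2 TPM (0.07, SE 0.10). The Uqcrb counts are uncertain, because transcripts of 3 other genes match its transcript at 95% identity or more over at least 50% of its length.

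In complex IV, cytochrome c oxidase, the 12 genes made in most tissues and the 5 tissue isoforms lay far apart in level. The 12 had means between 153 TPM (Cox7a2) and 724 TPM (Cox6b1) and the 5 between 5.14 TPM (Cox4i2) and 16.1 TPM (Cox8b). The 12 widely expressed genes had log2 fold changes between -0.10 (Cox5a) and 0.16 (Cox7a2l), 9 above 0 and 3 below. Over all 17 genes the median was 0.07.

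Cox6b1, an intermembrane space subunit, had 707, 739.8 and 719 TPM with saline and 718, 778 and 681 TPM with vasostatin-2 (log2 fold change 0.01, SE 0.08). Cox8a had 597, 732 and 704 against 699, 686 and 649.8 TPM (0.01, SE 0.11), and Cox7c had 559.9, 656 and 643 against 662, 694 and 675 TPM (0.13, SE 0.10). For the 3 genes saline replicate 1 was the lowest or nearly the lowest library. Cox7a2l, a paralog of Cox7a2, had 256, 278 and 252 against 294, 316 and 264 TPM (0.16, SE 0.10, adjusted p = 0.785 in edgeR). Cox4i1, Cox6a1, Cox7a2 and Cox7b had log2 fold changes of 0.07, -0.02, 0.07 and -0.03.

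The tissue isoforms made up small shares of their pairs, and these shares moved with single libraries. Cox6a2, the heart and skeletal muscle form of subunit 6a (chr7:128205435-128206366), had 5.19, 7.97 and 5.94 TPM with saline and 5.74, 4.8 and 20.2 TPM with vasostatin-2. Its share of the Cox6a pair was 3.08% in vasostatin-2 replicate 3 and 0.738% to 1.27% in the other 5 libraries. The fitted log2 fold change was 0.68 (SE 0.58, adjusted p = 0.848 in edgeR), but -0.28 without vasostatin-2 replicate 3 and -0.34 without replicate 3 of both groups. Vasostatin-2 replicate 3 is the library with 1660 summed TPM of the 14 skeletal muscle markers, all 14 of them present in the table, against 126 to 208 in the others, and its level of Ckm, muscle creatine kinase, was 197 against 10.9 to 21.2 TPM. Cardiac markers were at 8.02 to 29.4 summed TPM, with Myh6 at 0 to 0.09. Their part in the result was not tested.

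Cox8b, the muscle form of subunit 8 (chr7:140898942-140900446), did not follow Cox6a2. It had 4.37, 25 and 20.8 TPM with saline and 17.4, 9.97 and 19.3 TPM with vasostatin-2, with saline replicate 1 lowest and saline replicate 2 highest. The log2 fold change was -0.12 (SE 0.60), -0.57 without saline replicate 1 and 0.35 without saline replicate 2. Each of the 6 white adipocyte markers was also lowest in saline replicate 1. Their sum was highest in saline replicate 2, at 10267 TPM, of which Fabp4 gave 7943, and by gene only Fabp4 and Cidec were highest there, while Adipoq, Plin1 and Lep were highest in vasostatin-2 replicate 1 and Retn in saline replicate 3. The 5 brown adipocyte markers were at 3.77 to 7.49 summed TPM, with Ucp1 at 0.06 to 2.05 and Elovl3 at 0 to 0.22. Their part in the result was not tested.

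Cox7a1, the muscle form of subunit 7a (chr7:30184171-30186030), had 4.66, 7.20 and 6.86 TPM with saline and 6.82, 8.60 and 9.09 TPM with vasostatin-2. The groups overlapped, and the log2 fold change was 0.39 (SE 0.30, adjusted p = 0.824 in edgeR), or 0.20 without saline replicate 1. Its share of the Cox7a1 and Cox7a2 sum was 3.04% to 5.85% over the libraries.

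Cox6b2, known as the testis form of subunit 6b (chr7:4751792-4753094), had 6.86, 4.88 and 7.23 TPM with saline and 8.04, 9.80 and 8.68 TPM with vasostatin-2. The groups did not overlap, with a log2 fold change of 0.50 (SE 0.23, 95% interval -0.05 to 1.04, adjusted p = 0.710 in edgeR) that ranged from 0.42 to 0.60 when each library was left out in turn. Against 681 to 778 TPM of Cox6b1 it was 0.66% to 1.3% of the pair. The germ cell markers Ddx4, Dazl and Prm1 summed to 0.26 to 1.13 TPM. Cox4i2, the form of subunit 4 known from lung and vascular cells and for its response to low oxygen (chr2:152753916-152765039), had 5.75, 4.62 and 5.80 against 3.95, 4.62 and 6.07 TPM, with overlapping groups and a log2 fold change of -0.14 (SE 0.25), which became -0.01 when vasostatin-2 replicate 1 was left out and -0.33 when replicate 3 of that group was. Pericyte markers summed to 163 to 231 TPM and smooth muscle markers to 780 to 2096 TPM in these libraries. Cox7b2 and Cox8c were not analysed here.

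**Figure D3:**
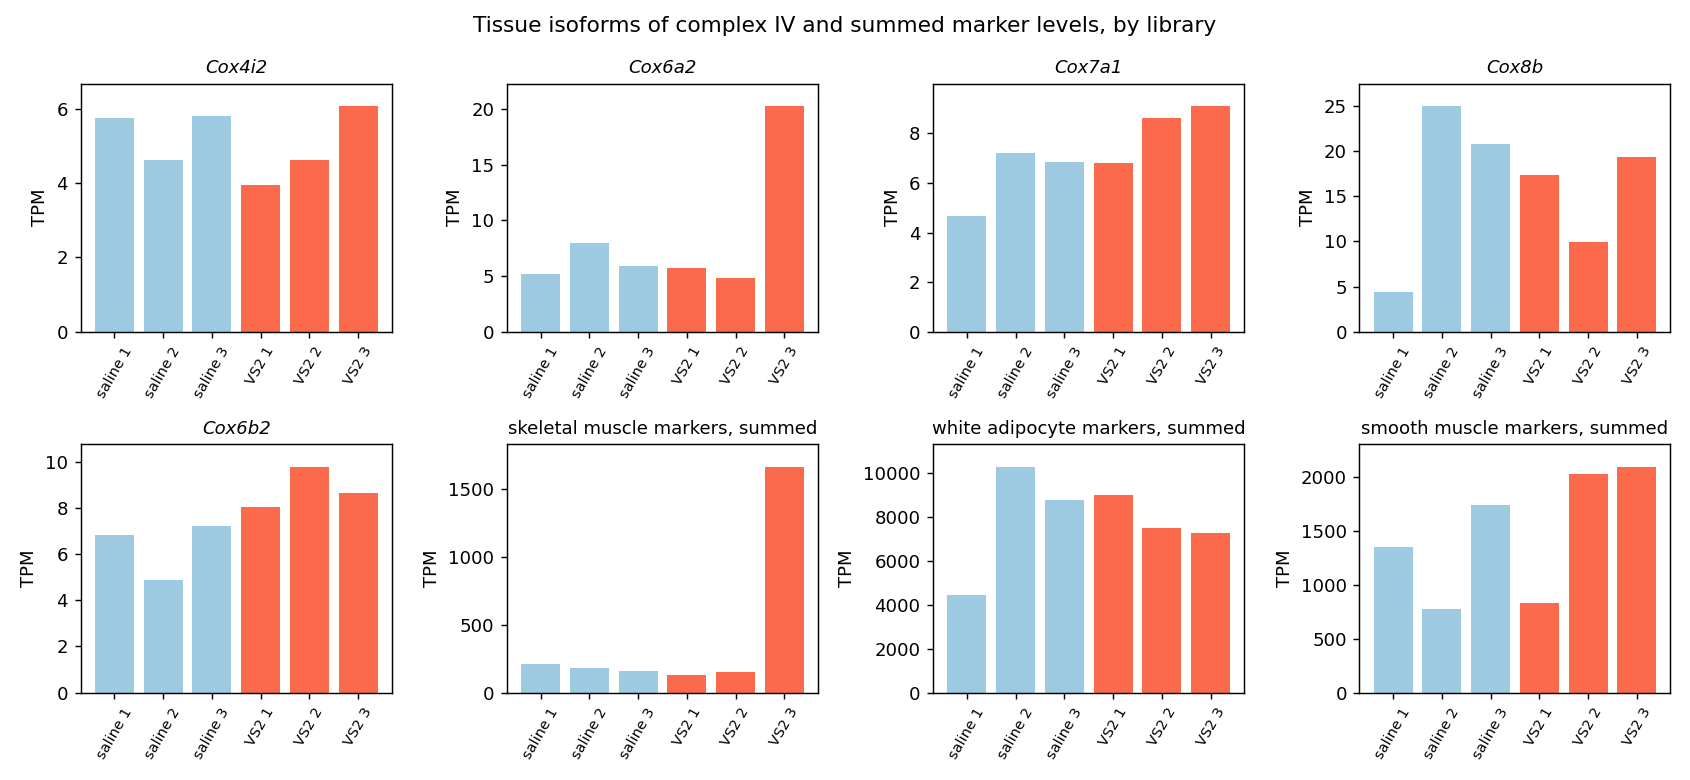
TPM of 5 tissue isoforms of complex IV in each library and, on the same kind of axis, the summed TPM of skeletal muscle, white adipocyte and smooth muscle markers, with saline in blue and vasostatin-2 (VS2) in red. Cox6a2 and the skeletal muscle markers are both highest in vasostatin-2 replicate 3, at 20.2 and 1660 TPM, and Cox8b and the white adipocyte markers are both lowest in saline replicate 1, at 4.37 and 4426 TPM.

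In ATP synthase, 10 of 17 genes had a log2 fold change above 0 and 7 below, with a median of 0.03. This median was -0.01 with limma-trend on TPM and also without saline replicate 1, 0.07 without saline replicate 2, and 0.01 when vasostatin-2 replicate 2 was left out. The 5 genes of the catalytic head and central stalk (Atp5a1, Atp5b, Atp5c1, Atp5d and Atp5e) ran from -0.01 to 0.13. The 4 of the peripheral stalk (Atp5h, Atp5j, Atp5o and Atp5pb) ran from -0.06 to 0.04, and the 5 small membrane subunits (Atp5j2, Atp5k, Atp5l, Atp5md and Atp5mpl) from -0.08 to 0.12.

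Atp5b, the catalytic beta subunit and the most abundant member of all (chr10:128083307-128090388), had 763, 709 and 799 TPM with saline and 751, 755.5 and 750.5 TPM with vasostatin-2. The 3 vasostatin-2 libraries lay inside the saline range, and the log2 fold change was 0.00 (SE 0.08, 95% interval -0.18 to 0.18). Atp5d, the delta subunit of the central stalk, had 325, 332 and 329 against 373, 338.5 and 358 TPM (0.13, SE 0.07, adjusted p = 0.763 in edgeR). By TPM its groups did not overlap, by CPM they did. Atp5l had 483, 570.4 and 525 against 582, 599 and 525 TPM (0.12, SE 0.11) and Atp5j2 had 469, 550.2 and 539 against 557, 586 and 493 TPM (0.07, SE 0.11). Transcripts of 9 other genes match Atp5l at the same identity and length limits, so its counts are uncertain. The same limits are met by 3 other genes for Atp5h and by 1 each for Atp5c1, Atp5k, Atp5o, Ndufb11, Ndufs3, Ndufs5 and Ndufs6.

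The membrane ring of ATP synthase is built from 1 protein, subunit c, which 3 genes encode with different targeting sequences. Atp5g1 (chr11:96072793-96075694) had 259, 218 and 246 TPM with saline and 225, 229 and 227 TPM with vasostatin-2. By CPM every vasostatin-2 library was below every saline library, by TPM saline replicate 2 was the lowest of all, and the log2 fold change was -0.08 (SE 0.06, adjusted p = 0.831 in edgeR). Atp5g2 had 383, 398 and 368 against 428, 407 and 431 TPM (0.15, SE 0.08, adjusted p = 0.737 in edgeR), with the groups apart by TPM and overlapping by CPM. Atp5g3 had 314, 296 and 302 against 322, 314 and 309 TPM (0.06, SE 0.06). Summed, the 3 genes gave 928 ± 24.6 TPM with saline and 964 ± 12.9 TPM with vasostatin-2 (SD, n = 3), and Atp5g2 supplied 40.0% to 44.6% of it in every library. The counts of Atp5g2 are uncertain, since 2 other genes hold near-identical transcripts.

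The members shared a pattern across the libraries. On the CPM scale, saline replicate 1 was the lowest of the 6 libraries for 59 of 83 members (71.1%), against 21.1% of all genes tested, and saline replicate 2 was the highest for 38 (45.8%), against 22.5%. The median deviation of a member from its own mean, in log2 CPM, was -0.14, 0.09 and -0.02 in saline replicates 1 to 3 and 0.05, 0.04 and -0.01 in vasostatin-2 replicates 1 to 3. The lowest and the highest library were thus both saline. Some related lists, described below, moved alike. Their medians in saline replicates 1 and 2 were -0.11 and 0.04 for citric acid cycle genes and -0.10 and 0.06 for assembly factors. Mitochondrial ribosomal proteins had -0.07 and 0.05, and carriers and supercomplex factors -0.05 and 0.13. Regulators had 0.00 and 0.08, and outer membrane and import genes 0.01 and 0.07. By TPM, saline replicate 1 was the lowest for 45 of 84 members, and vasostatin-2 replicate 2 was the highest for 21, more than any other library. The 45 include Ndufb4b, for which saline replicate 1 was only tied at 0 TPM. The same shares over all genes were not counted by TPM.

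**Figure D4:**
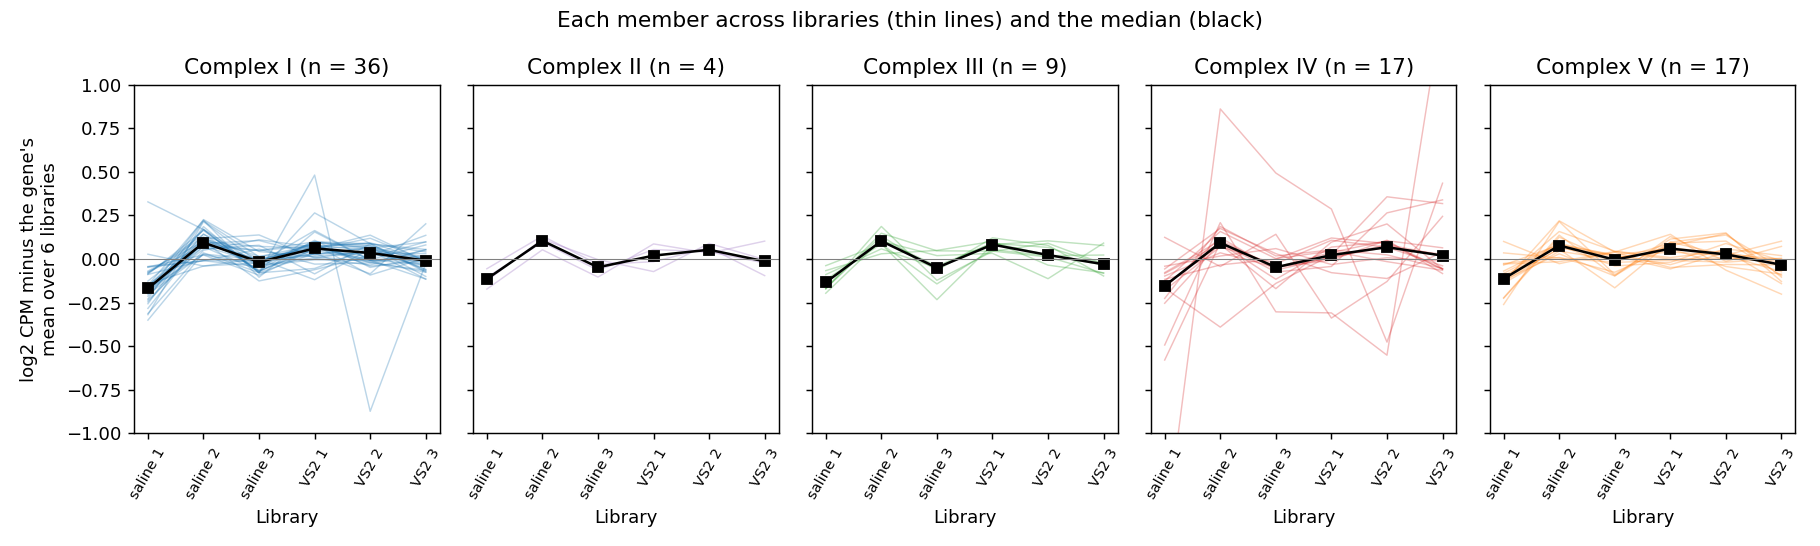
Log2 CPM of each member minus the gene's mean over 6 libraries (thin lines), with the median per library (squares), for complexes I to V; lines join libraries only to let 1 gene be followed. In every complex the median is lowest in saline replicate 1 and highest or nearly highest in saline replicate 2, and Cox8b in saline replicate 1 and Cox6a2 in vasostatin-2 replicate 3 lie outside the axis.

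The direction of the small shift depended on these libraries. Without saline replicate 1, 35 of 83 members had a log2 fold change above 0, where all 6 libraries gave 61, and the median over members was -0.01. The medians were then -0.02 for complex I, -0.02 for complex II, 0.00 for complex III, 0.02 for complex IV and -0.01 for complex V. Without saline replicate 2, 74 of 83 were above 0 with a median of 0.11, and 10 members had an unadjusted p under 0.05 in edgeR, against 11.2% of all genes tested then, the smallest being 0.0079 for Uqcr10 (adjusted p = 0.293). Single abundant members moved in the same way: without saline replicates 1 and 2 in turn, the log2 fold change was 0.04 and 0.22 for Atp5l, 0.04 and 0.22 for Cox7c, 0.01 and 0.16 for Uqcr11, and 0.00 and 0.15 for Uqcrh. With replicate 3 of both groups left out, 62 were above 0 and the median was 0.05.

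**Figure D5:**
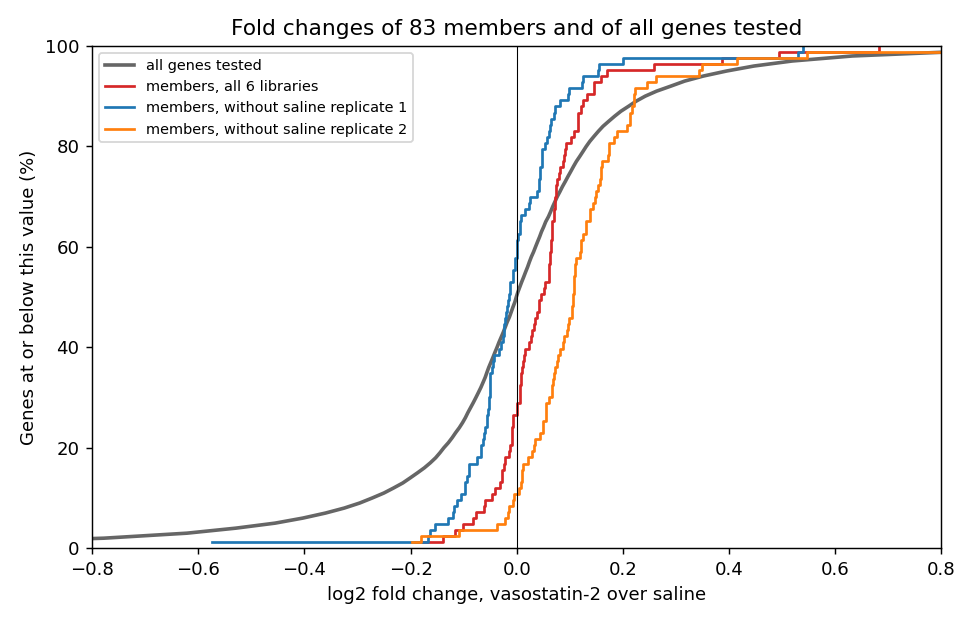
Cumulative share of genes at or below each log2 fold change of vasostatin-2 over saline, for all genes tested (grey) and for the 83 members with all 6 libraries (red), without saline replicate 1 (blue) and without saline replicate 2 (orange). The members' median moves from 0.05 to -0.01 and to 0.11, while the median of all genes tested is near 0 with all libraries, and values beyond the axis are counted but not drawn.

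Length and tissue values moved with saline replicate 1. The median member had an implied length of 653 bases against 2600 for all genes. In saline replicate 1, members under 1000 bases differed from the other saline libraries by a median of -0.21 in log2 CPM (60 genes), and members of 1000 to 2000 bases by -0.11 (19 genes), while the 4 members of 2000 to 4000 bases had a median of -0.13. Other genes tested had medians of -0.07 under 1000 bases (971 genes), -0.03 from 1000 to 2000, 0.00 from 2000 to 4000 and 0.04 above. The white adipocyte markers, as given above, were lowest in the same library. The sum of the 7 macrophage markers was also lowest in saline replicate 1, at 11113 TPM, and highest in saline replicate 2, at 15783 TPM. Lyz2 gave 5809 and 9657.5 TPM of these sums. By gene, Cd68, C1qb and Lyz2 were lowest in saline replicate 1, but Adgre1, Csf1r, C1qa and C1qc in saline replicate 3. Only Cd68 and Lyz2 were highest in saline replicate 2, while Adgre1 and Csf1r were highest in vasostatin-2 replicate 2 and C1qa, C1qb and C1qc in vasostatin-2 replicate 3. The part of length and of adipocyte and macrophage content in the result was not tested.

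Genes that build or surround the complexes were described from lists drawn up by function, with earlier results of these data known. Over all genes tested, 7.14% had an unadjusted p under 0.05 in edgeR and 49.8% a log2 fold change above 0. Of 57 listed assembly factors, 55 were tested, 0 passed at an adjusted or an unadjusted p under 0.05 in edgeR, and 32 had a log2 fold change above 0 (median 0.01). Among 14 carriers and supercomplex factors (median -0.02), 1 had an unadjusted p under 0.05, Higd1a, with 27.6, 23.5 and 27.3 TPM with saline and 22.1, 22.3 and 23.4 TPM with vasostatin-2 (-0.20, SE 0.08, adjusted p = 0.681 in edgeR). Cycs, cytochrome c itself, had 78.2, 78.6 and 84.6 against 75.6, 71.4 and 68.4 TPM (-0.16, SE 0.07, adjusted p = 0.710 in edgeR).

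Of 16 citric acid cycle and pyruvate dehydrogenase genes, 13 were above 0 (median 0.02), with Suclg2 the 1 gene at an unadjusted p under 0.05 (log2 fold change 0.23, SE 0.08, adjusted p = 0.671 in edgeR). Of 78 mitochondrial ribosomal protein genes, 46 were above 0 (median 0.03), and 2 had an unadjusted p under 0.05, Mrpl23 at 0.22 and Mrpl54 at -0.16 (adjusted p = 0.608 and 0.685 in edgeR). Of 12 regulators, 7 were above 0 (median 0.02) and 2 had an unadjusted p under 0.05. Gabpb1, a partner subunit of the ETS factor GABP, had 30.3, 24.4 and 25.4 against 22.7, 22.4 and 23.8 TPM (-0.22, SE 0.06, adjusted p = 0.586 in edgeR), and Polrmt, the mitochondrial RNA polymerase, had 11.6, 11.5 and 11.8 against 12.9, 13.3 and 13 TPM (0.18, SE 0.07, adjusted p = 0.684 in edgeR). Of 10 outer membrane and import genes, 2 were above 0 (median -0.05), with Tomm40, the import pore, the 1 gene at an unadjusted p under 0.05, at -0.15 (adjusted p = 0.693 in edgeR). No gene of these lists passed the adjusted threshold. The counts of each list stand beside 49.8% of all genes tested above 0 and 7.14% at an unadjusted p under 0.05 in edgeR.

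Ndufa4l2, the paralog of Ndufa4 that is known as a target of hypoxia-inducible factor and that the naming rule leaves out, had 50.8, 43.5 and 42.1 TPM with saline and 23.0, 26 and 25 TPM with vasostatin-2. The groups did not overlap, and the log2 fold change was -0.87 (SE 0.10, adjusted p = 0.234 in edgeR), while the authors' deposited table gives it a q of 3.7e-06. Ndufa4 itself had 435, 424 and 469.6 against 496, 485 and 438 TPM and a log2 fold change of 0.10 (SE 0.07, adjusted p = 0.809 in edgeR).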

How the data were processed

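RNA was measured in 6 femoral artery libraries, grouped by the treatment label as 3 saline and 3 vasostatin-2. Per the labels' protocols, oligo(dT) beads were used to enrich mRNA, which was sequenced on a BGISEQ platform. HISAT2 2.1.0 and DESeq2 1.26.0 with build GRCm38.p6 are named in the submitters' processing notes. The counting tool and strandedness are not given in the sources used here, so a gene cannot be told apart from an overlapping or antisense one. The authors deposited estimated counts per gene that need not be whole (84.5% of the members' values were whole within 1e-09), and TPM and FPKM values made from them. The deposited FPKM values were used only for the implied lengths, worked out from counts and FPKM as the median over libraries. The authors' deposited log2 fold changes and their p-values or q-values are quoted only where their table is named.

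Estimated counts were rounded, filtered with filterByExpr (14557 of 18476 genes left) and scaled by TMM (factors 0.985 to 1.01). edgeR 4.0.16 (R 4.3.3) fitted treatment alone to the whole table with robust quasi-likelihood dispersions, with Benjamini-Hochberg adjustment over all genes tested. The biological coefficient of variation was 16.1%. An SE is the fold change divided by the square root of F. CPM values use scaled library sizes, and log2 CPM a prior count of 2. DESeq2 1.42.0, limma 3.58.1 with voom, and limma-trend on log2 of TPM plus a pseudocount of 1 were run on the same genes. Levels are compared between genes in TPM only, and "groups do not overlap" is counted on CPM unless TPM is named. The p-values weigh a group difference against the spread between these libraries, estimated with information shared across genes. Scripts were tested on simulated data. Transcripts of 81 members were compared by BLAST 2.17.0 with GENCODE M21 transcripts, and 12 had a near-identical transcript at another gene (at least 95% identity over at least 50% of the length). Promoter windows come from RefSeq, and gene coordinates from the deposited table.

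The members, lists and subunit groups were chosen with earlier results of these data known. Members were named by rule: in each complex the 3 of highest mean TPM and the 2 of smallest p, any with an unadjusted p under 0.05, all paralogs with tissue or stress forms, and those not tested. Other members named were chosen after their values were seen. Alternatives were other scalings, filters and tests, a replicate block, leaving out each library or replicate 3 of both groups, and removal of skeletal muscle, fat and red cell markers. 1 member counted in the totals is not reported here by name.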

Additional observations from a re-analysis of the deposited data

How the results depend on the processing

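Over 17 alternatives, the 32 members named by rule gave 544 values, of which 0 were called at an adjusted p under 0.05 and 2 moved by more than 1 SD between libraries, both of Cox6a2 (-0.28 without vasostatin-2 replicate 3 and -0.34 without replicate 3 of both groups). No member was called under any of them. The SD was each member's own, so a variable gene could move far and stay within it. The sign changed for 7 of the 32 without saline replicate 1 and for 5 without vasostatin-2 replicate 2. It changed for 4 without saline replicate 2, for 4 without saline replicate 3, and for 0 to 3 under the other alternatives. DESeq2 called 113 genes in the whole table where edgeR called 0, and leaving out single replicates gave 0 to 2, the 2 without saline replicate 2. Members at an unadjusted p under 0.05 numbered 0 with edgeR and all libraries, 5 with limma-voom (Ndufa2, Sdhb, Uqcr10, Cox7a2l and Atp5g2), 2 with limma-trend on TPM (Ndufa2 and Cox6b2) and 0 to 10 when single replicates were left out, the 10 without saline replicate 2. The median log2 fold change of all members stayed between 0.03 and 0.11 under the alternatives other than leaving out saline replicate 1, where it was -0.01; the cause was not tested. Same-numbered libraries of the groups did not deviate together (correlations -0.12, 0.03 and 0.03). With 3 libraries a group that differed in tissue content, this cannot decide whether the numbers mark a pairing. With replicate number as a block the median over members was 0.05, 0 genes and 0 members were called, and 62 members were above 0. With 3 libraries a group, a log2 difference inside a member's 95% interval could not be resolved, and counts of the 5 tissue isoforms were low.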
